A study of Mus musculus with 22 samples.

Results

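The genes described here are 10 calcium-handling genes of the hippocampal CA1 region: the ryanodine receptors Ryr1, Ryr2 and Ryr3, the inositol trisphosphate (IP3) receptors Itpr1, Itpr2 and Itpr3, the pumps Atp2a2 and Atp2b1, and the buffers Calb1 and Calb2. The list was set by gene name, with earlier results of these data known. All 10 were among the 23361 genes of the expression matrix, and all 10 passed the filter on low levels that left 16978 genes for testing. Messenger RNA was sequenced from microdissected CA1 tissue of 22 wild-type female mice, F1 mice of the cross Swiss Webster x DBA/C57BL6. The mice were fed ad libitum (AL, the normal diet) or kept from young adulthood on caloric restriction (CR), in which carbohydrates were reduced. They were killed at 5 or 15 months of age. The groups held 5 AL and 5 CR mice at 5 months and 6 AL and 6 CR mice at 15 months, with 1 library per mouse. Levels are FPKM, a count of fragments scaled to transcript length and to the number of mapped fragments, so that genes of different length can be compared.

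Neurons keep calcium at a low concentration in the cytosol and at a high one in the endoplasmic reticulum (ER). Ryanodine and IP3 receptors are the channels that let calcium out of the ER, the former opened mainly by calcium itself and the latter by IP3 made downstream of Gq-coupled receptors. SERCA pumps return calcium to the ER, PMCA pumps push it out of the cell, and EF-hand proteins such as calbindin bind it in between. Calcium release, clearance and buffering in CA1 pyramidal neurons are widely studied in synaptic plasticity and in aging.

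Between 5 and 15 months in AL mice the plasma membrane pump gene Atp2b1 and the release channel gene Ryr3 fell, to 77.3 ± 12.6 FPKM (SD, n = 6) from 170 ± 32.9 FPKM (n = 5) and to 6.47 ± 1.52 from 11.9 ± 1.92 FPKM. The rare IP3 receptor gene Itpr3 passed the test as higher, a call that held in 7 of 11 fits with 1 library left out. The other 7 genes did not pass the test in that comparison, and 4 of 6 markers of CA1 pyramidal neurons were lower in it too, as described below. The promoters of the IP3 receptors Itpr3 and Itpr2 are shown because these sister genes, both expressed at a low level, differed in that call, and that of Ryr2 because it is the main ryanodine receptor here and did not pass the test. RefSeq promoters matched 5 of the 10 genes (Itpr2, Itpr3, Ryr1, Ryr2 and Atp2b1). Each window below holds the 250 bases before the gene's start in GRCm38.p6, read 5′ to 3′ on the gene's own strand, with capitals at every GC box (GGGCGG, or its complement on the other strand).
Itpr3, chr17:27057054-27057303, plus strand: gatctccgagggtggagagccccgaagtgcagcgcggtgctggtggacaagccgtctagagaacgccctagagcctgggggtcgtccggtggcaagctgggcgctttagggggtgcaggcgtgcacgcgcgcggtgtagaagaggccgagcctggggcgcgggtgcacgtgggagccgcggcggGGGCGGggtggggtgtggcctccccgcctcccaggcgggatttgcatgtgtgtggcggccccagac
Itpr2, chr6:146502224-146502473, minus strand: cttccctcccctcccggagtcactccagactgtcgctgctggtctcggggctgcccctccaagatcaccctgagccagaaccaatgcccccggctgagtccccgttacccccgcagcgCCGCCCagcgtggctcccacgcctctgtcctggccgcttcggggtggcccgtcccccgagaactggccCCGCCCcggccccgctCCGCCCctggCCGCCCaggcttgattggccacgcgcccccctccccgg
Ryr2, chr13:12106946-12107195, minus strand: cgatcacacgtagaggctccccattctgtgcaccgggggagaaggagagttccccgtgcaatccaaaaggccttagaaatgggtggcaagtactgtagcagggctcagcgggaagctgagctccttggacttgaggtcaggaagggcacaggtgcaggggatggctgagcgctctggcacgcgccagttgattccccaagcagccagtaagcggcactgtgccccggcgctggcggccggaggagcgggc
The Itpr3 window held 1 GC box, the Itpr2 window 4 and the Ryr2 window 0, with a GC content of 72.0%, 74.4% and 63.2% against a median of 52.4% over all promoters of the same length. Of the windows not shown, those of Atp2b1 held 4 and 3 GC boxes (78.4% and 80.8% GC) and that of Ryr1 held 2 (54.8%). A GC box on either strand was in 32.7% of all 32851 such promoters. Neither the cAMP response element (TGACGTCA, in 1.55% of promoters) nor the TATA box (TATAAA, in 12.4%) was in any window of the 5 matched genes, both strands searched. These are matches of letters and say nothing about which factors bind.

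Before the comparisons, the tissue was checked against 15 lists of cell type markers (77 genes), each summarised per library as the mean of log2(FPKM + 0.1). The CA1 score, from 6 markers of CA1 pyramidal neurons, averaged 5.71 ± 0.49 (SD, n = 5) on this scale for 5-month AL mice and 4.04 ± 0.60 (n = 6) for 15-month AL mice, and the ranges did not overlap (5.13 to 6.25 against 3.30 to 4.90). It was 5.67 ± 0.21 (n = 5) and 4.69 ± 0.96 (n = 6) in CR mice at the same ages. With age in AL mice, 4 of 6 CA1 markers, 2 of 5 dentate granule cell markers and 4 of 6 choroid plexus markers were lower, and of 7 neocortex and subiculum markers 3 were higher and 1 was lower. In limma 9.97% of all tested genes passed as lower and 10.7% as higher, and 35.2% had an unadjusted p under 0.05. The CA1 markers did not all fall: Wfs1 read 33.7 to 88.2 FPKM at 5 months and 70.2 to 106 FPKM at 15 months. As higher, 0 of 6 CA1 markers passed. Of the CA3 markers 1 of 4 was higher and 2 were lower, 2 of 5 thalamus markers were higher, and of 5 habenula markers 1 was higher and 1 lower. Of 5 astrocyte markers 1 was higher, and 1 each of the oligodendrocyte (5), microglia (5) and Cajal-Retzius markers (3 tested) was lower, while 0 of 6 interneuron, 3 mossy cell, 5 endothelial and 5 mural cell markers passed in limma (0, 0, 1 and 1 had an unadjusted p under 0.05). The difference of the neocortex and subiculum score and the CA1 score, called the region score below, was -2.60 ± 0.66 in AL mice at 5 months and -0.20 ± 0.57 at 15 months, again with no overlap. In bulk tissue fewer cells of a type and less RNA per cell cannot be told apart. One CR library at 15 months, replicate 4, stood apart, with the lowest CA1 score of its group (3.21), the highest mossy cell score (2.05, the others 0.0092 to 0.91) and a Calb2 level of 183 FPKM. The Calb2 difference between diets is given with and without it, and other values of the group include it unless stated. Without it the CA1 score of the group was 4.99 ± 0.70 (n = 5).

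The 10 genes spanned a wide range of levels, and their order was similar in all groups. In AL mice at 5 months, the SERCA pump Atp2a2 stood at 170 ± 17.6 FPKM (SD, n = 5) and the PMCA pump Atp2b1 at 170 ± 32.9 FPKM, followed by Itpr1 at 81.4 ± 19.0 and Calb1 at 57.2 ± 8.91 FPKM. Ryr2 (23.2 ± 4.14 FPKM), Calb2 (15.4 ± 9.00 FPKM) and Ryr3 (11.9 ± 1.92 FPKM) came next, and Ryr1 (3.60 ± 1.39 FPKM), Itpr2 (3.17 ± 0.242 FPKM) and Itpr3 (0.669 ± 0.124 FPKM) were lowest. Neighbours in this order with overlapping libraries were Atp2a2 and Atp2b1, Itpr1 and Calb1, Ryr2, Calb2 and Ryr3, and Ryr1 and Itpr2. In AL mice at 15 months the pumps separated. The lowest Atp2a2 library was at 121 FPKM and the highest Atp2b1 library at 91.6 FPKM, and Atp2b1 then overlapped Itpr1. Over all libraries Atp2a2 was above 96.6% of tested genes in mean level and Itpr3 above 16.7%.

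**Figure D1:**
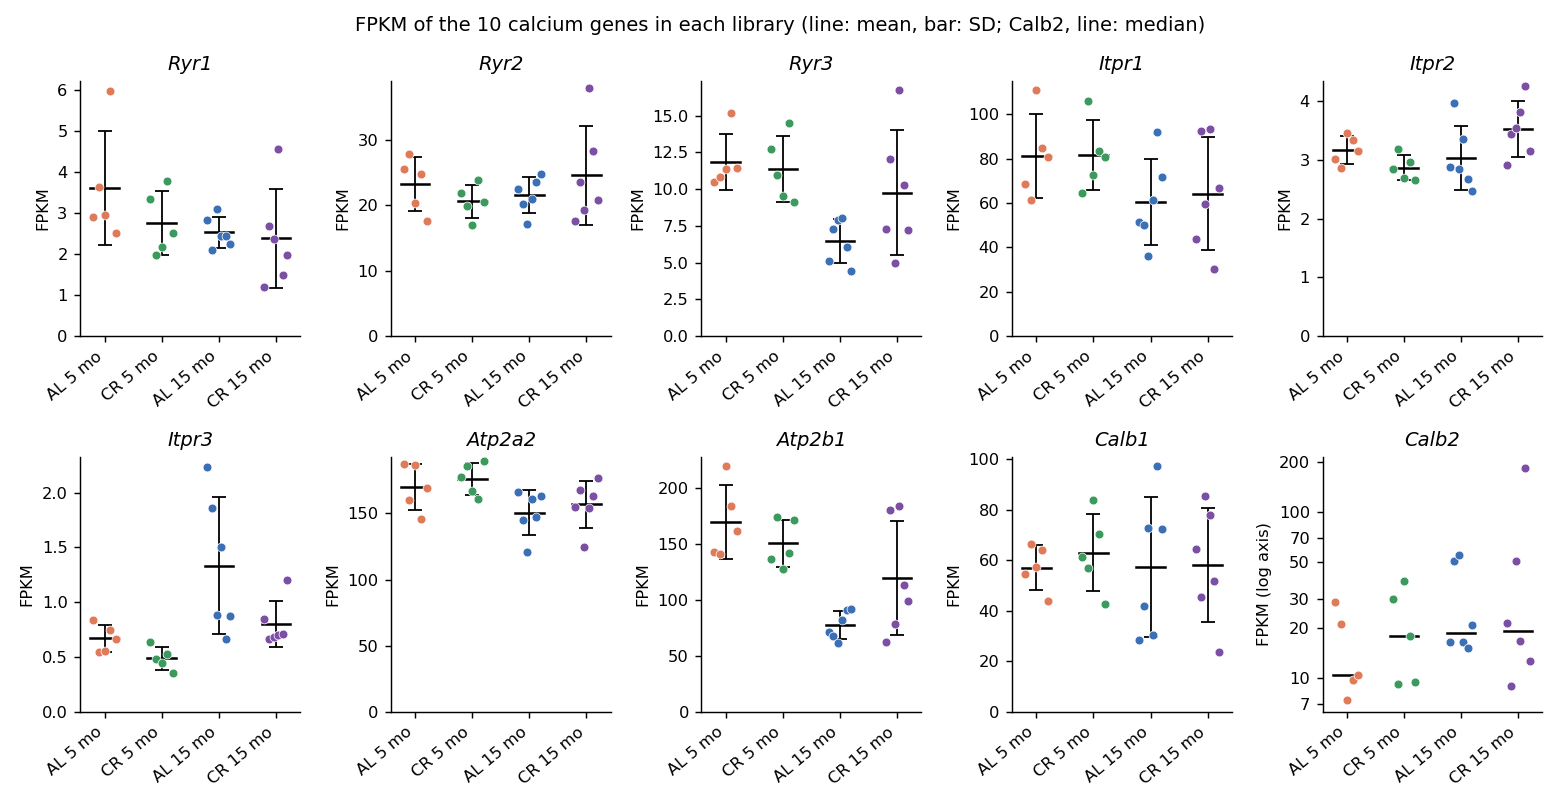
FPKM of each of the 10 genes (y axis, linear from 0 except Calb2, which has a log axis) in each library, by group (x axis: diet and age). Points are libraries, lines are group means with SD bars, and for Calb2 the line is the median. Atp2b1 and Ryr3 at 15 months in AL mice lie below every AL library at 5 months, and 1 Calb2 library of CR mice at 15 months reaches 183 FPKM.

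The first comparison asked which genes changed between 5 and 15 months in AL mice. Among the 10 genes, 3 passed the test (limma across all tested genes, adjusted p under 0.05), 2 lower and 1 higher at 15 months, beside 20.6% of all tested genes (9.97% lower and 10.7% higher). The libraries of the age groups did not overlap for 2 of the 10, beside 14.0% of all tested genes, and both were lower at 15 months, beside 6.77% (7.27% did so with higher levels at 15 months). The same 3 genes had an unadjusted p under 0.05 in limma, as had 35.2% of all tested genes. The median log2 fold change of the 10 genes was -0.15, and that of all tested genes was -0.0018.

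Among the release channels, Ryr3, the ryanodine receptor first known from brain and enriched in hippocampus, was lower at 15 months. In AL mice at 5 months its libraries read 10.5, 10.8, 11.4, 15.2 and 11.4 FPKM, and at 15 months the lowest, median and highest of 6 were 4.41, 6.67 and 8.06 FPKM. Every 15-month library was below every 5-month library. The log2 fold change was -0.89 (SE 0.23, adjusted p = 0.0119), with a two-sided exact permutation p of 0.00216, the smallest that 5 against 6 mice allow. Without AL replicate 3 at 5 months, the library at 15.2 FPKM, the other 4 libraries lay between 10.5 and 11.4 FPKM and the call held, as it did when any other single library was left out (adjusted p 0.0110 to 0.0336). Ryr3 lies at chr2:112631355-113217096 on the minus strand (GRCm38), and the coding gene Aven overlaps it on the other strand. The library kit keeps no strand, so reads from shared bases cannot be told apart. Aven itself was at 6.89 ± 0.510 FPKM (n = 5) at 5 months and 7.13 ± 1.07 FPKM (n = 6) at 15 months (log2 fold change 0.04, SE 0.11, adjusted p = 0.834).

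Ryr2, best known as the cardiac ryanodine receptor and the most abundant one here, read 25.5, 27.8, 20.3, 24.8 and 17.6 FPKM at 5 months and had a lowest, median and highest value of 17.1, 21.7 and 24.8 FPKM at 15 months. The groups overlapped almost wholly, and the log2 fold change was -0.10 (SE 0.16, adjusted p = 0.694). Ryr1, the skeletal muscle form, had a log2 fold change of -0.44 (SE 0.27, adjusted p = 0.250, exact permutation p = 0.0433). It had 1 library at 5 months at 5.99 FPKM and all other AL libraries between 2.11 and 3.64 FPKM. Within each library, Ryr3 made up 30.9% ± 4.48 (n = 5) of the summed ryanodine receptor FPKM in AL mice at 5 months and 21.4% ± 5.57 (n = 6) at 15 months. Ryr2 made up 59.9% ± 5.49 and 70.3% ± 6.36, and the ranges of both shares overlapped between ages. The summed FPKM of the 3 receptors was 38.6 ± 5.78 and 30.5 ± 1.49.

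The IP3 receptors moved less uniformly. Itpr3, the rarest of the 3 and better known from epithelial and secretory cells, was at 0.838, 0.548, 0.554, 0.742 and 0.662 FPKM in AL mice at 5 months and at a lowest, median and highest level of 0.668, 1.19 and 2.23 FPKM at 15 months. At 15 months 5 of 6 libraries were above every library at 5 months, and the spread was wider at 15 months (SD 0.628 against 0.124 FPKM). The log2 fold change was 0.80 (SE 0.24, adjusted p = 0.0250, exact permutation p = 0.0368). This call ended when AL replicate 1 or 2 at 5 months or AL replicate 0 or 1 at 15 months was left out (adjusted p 0.0572 to 0.0641), and when only the AL groups were fitted (adjusted p = 0.0636).

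Itpr1, the main neuronal IP3 receptor, carried 92.6% to 96.0% of the summed IP3 receptor FPKM as a mean of each group. Its AL libraries at 5 months read 68.7, 61.6, 111, 84.8 and 80.9 FPKM, and at 15 months the lowest, median and highest were 35.9, 56.5 and 92.2 FPKM. At 15 months 4 of 6 libraries were below the lowest at 5 months, but the others reached into the 5-month range, and the log2 fold change was -0.46 (SE 0.26, adjusted p = 0.218, exact permutation p = 0.0974). Itpr2, found in glia as well as in neurons, was at 3.17 ± 0.242 and 3.03 ± 0.545 FPKM (log2 fold change -0.07, SE 0.11).

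The pumps differed from each other. Atp2b1 encodes PMCA1, a calcium exporter of the plasma membrane, and lies at chr10:98914406-99026143 on the plus strand. Its AL libraries at 5 months read 142, 141, 220, 184 and 161 FPKM, and at 15 months the lowest, median and highest were 61.6, 76.4 and 91.6 FPKM. Every library at 15 months was below every library at 5 months, by a wide margin. The log2 fold change was -1.13 (SE 0.22, adjusted p = 0.00183, exact permutation p = 0.00216), and it stayed between -1.19 and -1.03 when each library was left out in turn. Atp2a2, which encodes the SERCA pump SERCA2, overlapped between ages, with 187, 160, 186, 146 and 169 FPKM at 5 months against a lowest, median and highest of 121, 154 and 166 FPKM at 15 months. For Atp2a2 the fitted log2 difference was -0.18 (SE 0.09, adjusted p = 0.192). Atp2a2 made up about 99% of summed SERCA FPKM, with group means of 98.9% to 99.2%.

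Set against the other PMCA genes of the same library, the change of Atp2b1 was also one of proportion. Atp2b1 made up 58.8% ± 4.54 (n = 5) of the summed PMCA FPKM in AL mice at 5 months, 52.9% to 64.1% in single libraries, and 32.5% ± 2.91 (n = 6) at 15 months, 28.6% to 37.1%. Atp2b4, another PMCA gene, went from 4.68% ± 0.853 to 21.6% ± 6.15 of the sum, also without overlap. The share of Atp2b2 went from 20.8% ± 2.76 (17.9% to 24.1%) to 32.1% ± 4.31 (25.0% to 38.5%), again without overlap. In level, Atp2b4 was at 13.3 ± 1.79 FPKM (n = 5) and 51.6 ± 16.5 FPKM (n = 6), a log2 fold change of 1.90 (SE 0.38, adjusted p = 0.00214), and Atp2b3 fell by 0.47 (SE 0.15, adjusted p = 0.0281). The summed PMCA FPKM was 286 ± 35.4 at 5 months and 237 ± 28.2 at 15 months. In CR mice, Atp2b1 was 53.7% ± 3.81 (n = 5) of the sum at 5 months and 45.0% ± 10.8 (n = 6) at 15 months, and the latter ran from 27.5% to 57.6%.

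**Figure D2:**
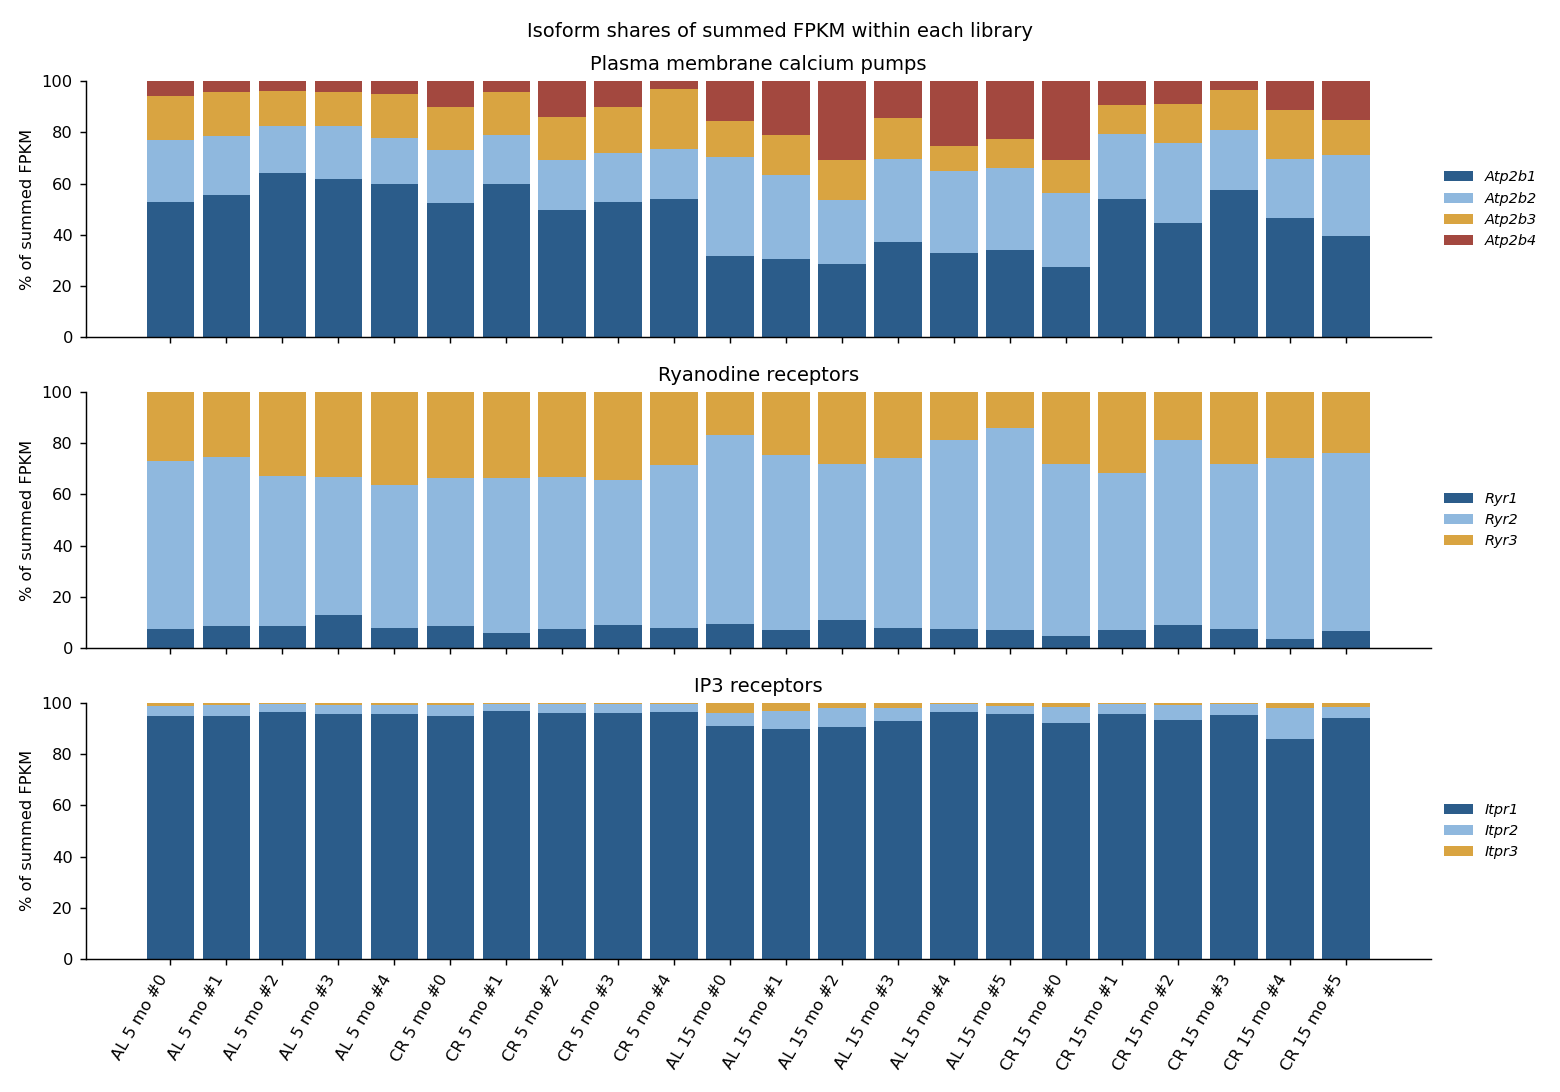
Share of each isoform (y axis, % of summed FPKM) in every library (x axis, by group and replicate) for the PMCA pumps, the ryanodine receptors and the IP3 receptors. Atp2b1 covers 52.9% to 64.1% of each AL bar at 5 months and 28.6% to 37.1% at 15 months, while Itpr1 covers most of each IP3 receptor bar in all groups.

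The buffers did not pass the test. Calb1, which encodes calbindin-D28k of dentate granule cells and of superficial CA1 pyramidal cells, was at 57.2 ± 8.91 FPKM (n = 5) at 5 months and 57.3 ± 27.8 FPKM (n = 6) at 15 months (log2 fold change -0.13, SE 0.32, adjusted p = 0.802). The means were nearly equal and the spread was not. The libraries lay between 43.8 and 66.4 FPKM at 5 months and between 28.3 and 97.4 FPKM at 15 months. Calb2, which encodes calretinin, found in interneurons and in mouse mossy cells, read 28.5, 21.0, 7.36, 9.71 and 10.5 FPKM at 5 months and had a lowest, median and highest level of 15.2, 18.7 and 54.9 FPKM at 15 months. Its groups overlapped (log2 fold change 0.88, SE 0.64, adjusted p = 0.337).

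**Figure D3:**
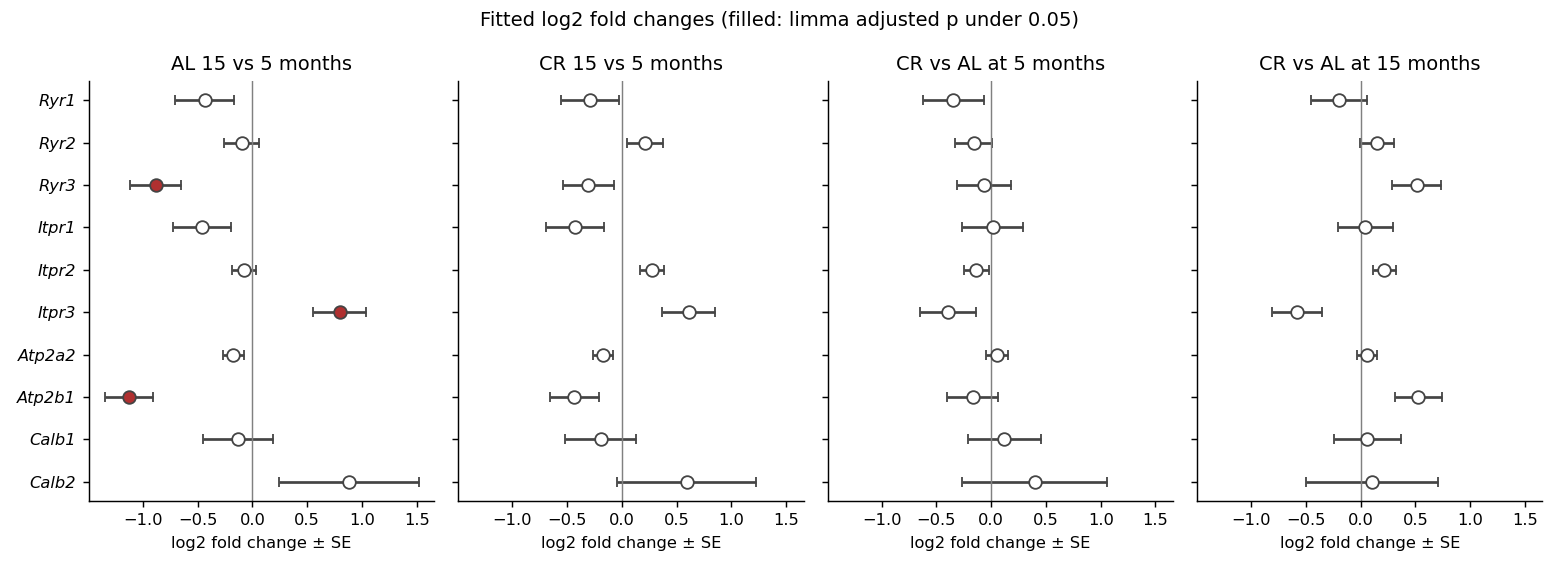
Fitted log2 fold change (x axis) with its SE bar for each of the 10 genes (y axis) in 4 comparisons. Filled points passed limma's adjusted p of 0.05: Ryr3, Itpr3 and Atp2b1 in AL mice at 15 against 5 months, and none of the 10 in the other panels.

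The tissue markers moved with these results. In AL mice the ranges of the region score at 5 months (-3.27 to -1.57) and at 15 months (-0.88 to 0.53) did not overlap, so age and region score can hardly be told apart in 1 fit. With the region score as a covariate, the log2 fold change of Atp2b1 was -0.37 (SE 0.27, adjusted p = 0.634), that of Ryr3 was -0.19 (SE 0.31, adjusted p = 0.859) and that of Itpr3 was 0.59 (SE 0.38, adjusted p = 0.571), and 0 of the 10 genes passed, where 3 passed without it. In that fit 0 of all tested genes passed in limma, and 1965 had an unadjusted p under 0.05. With the CA1 score alone as covariate, chosen after seeing the data, Atp2b1 was at -0.67 (SE 0.29, adjusted p = 0.174). How much of each change came from the makeup of the samples was not tested.

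The same comparison in CR mice gave smaller differences for the pump and the ryanodine receptor. Of the 10 genes, 0 passed limma's test between 5 and 15 months in CR mice, beside 3.36% of all tested genes, and 2 had an unadjusted p under 0.05, beside 18.0%. Atp2b1 read 136, 174, 127, 142 and 171 FPKM at 5 months, and its 6 libraries at 15 months had a lowest, median and highest level of 62.4, 106 and 183 FPKM. The 15-month libraries thus ran from below to above the 5-month range (log2 fold change -0.43, SE 0.22, adjusted p = 0.319). Ryr3 read 12.7, 11.0, 9.56, 14.5 and 9.15 FPKM at 5 months and 5.00, 8.79 and 16.7 FPKM (lowest, median, highest) at 15 months, with a log2 fold change of -0.30 (SE 0.23, adjusted p = 0.523).

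Itpr3 was the 1 gene of the 10 whose CR libraries did not overlap between ages, beside 3.26% of all tested genes in either direction and 1.15% with higher levels at 15 months. It read 0.632, 0.479, 0.443, 0.525 and 0.353 FPKM at 5 months and 0.665, 0.706 and 1.20 FPKM (lowest, median, highest) at 15 months. All 6 of the 15-month libraries were higher, though the closest pair were at 0.632 and 0.665 FPKM. The log2 fold change was 0.61 (SE 0.24), the adjusted p was 0.177 and the exact permutation p was 0.00216, the smallest possible, from 1 of 50 such tests of the 10 genes. Itpr2 had a log2 fold change of 0.28 (SE 0.11, adjusted p = 0.178). Its libraries were at 2.87 ± 0.216 FPKM (n = 5) and 3.52 ± 0.477 FPKM (n = 6). Without CR replicate 4 the latter was 3.38 ± 0.351 FPKM (n = 5).

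The second question was the effect of diet at each age. At 5 months, 0 of the 10 genes passed limma's test between CR and AL mice, 0 had an unadjusted limma p under 0.05 (4.65% of all tested genes), and 0% of all tested genes passed. The exact permutation p of Itpr3 was 0.0397, from 1 of 50 such tests of the 10 genes. The log2 fold changes ran from -0.39 for Itpr3 to 0.40 for Calb2, each with an adjusted p of 1. At 15 months, 0 of the 10 passed, beside 0.742% of all tested genes, and 3 had an unadjusted p under 0.05, beside 17.1%. That background rests on single libraries: 126 genes passed in all, 15 to 732 with 1 library of the 2 groups left out (732 without CR replicate 0), and 0 with only those groups fitted, where 2003 had an unadjusted p under 0.05 in limma. The 3 were the same 3 genes as with age in AL mice, each with the opposite sign, but the 2 comparisons share the AL mice at 15 months, so the signs are not independent. Dentate granule cell markers differed in level as well. Their score was 2.12 ± 1.91 (range -0.44 to 4.41) in CR mice and 0.69 ± 1.03 (-0.76 to 2.10) in AL mice (n = 6 each), highest in CR replicate 3. Of the 5 markers 0 passed limma's test and 2 had an unadjusted p under 0.05, with a median log2 fold change of 1.38. Their part in the values below was not tested.

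Atp2b1 at 15 months read a lowest, median and highest level of 62.4, 106 and 183 FPKM in CR mice against 61.6, 76.4 and 91.6 FPKM in AL mice. Of 6 CR libraries 4 were above every AL library, and the others lay within the AL range. The log2 fold change was 0.53 (SE 0.21, adjusted p = 0.211, exact permutation p = 0.0887), and it was 0.69 (adjusted p = 0.0465) without CR replicate 0, the lowest CR library, the only one of 12 leave-one-out fits in which a gene of the 10 passed here. The highest CR libraries, replicates 1 and 3 at 180 and 183 FPKM, also had the highest CA1 scores of the group (5.79 and 5.57) and the lowest region scores (-2.16 and -2.90). The part of these markers in the difference was not tested. With the region score as a covariate 0 of the 10 genes passed in this comparison, as without it, so that fit had no call to lose. In it 7 of all tested genes passed.

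Ryr3 at 15 months was at 9.77 ± 4.23 FPKM in CR mice and 6.47 ± 1.52 FPKM in AL mice (n = 6 each), a log2 fold change of 0.51 (SE 0.22, adjusted p = 0.250, exact permutation p = 0.113). Its highest CR library, replicate 3 at 16.7 FPKM, was the same mouse that was highest for Atp2b1, Ryr1 and Ryr2. Itpr3 was at 0.802 ± 0.207 FPKM in CR and 1.33 ± 0.628 FPKM in AL mice (log2 fold change -0.58, SE 0.23, adjusted p = 0.207, exact permutation p = 0.0823). For Itpr2, 6 of 6 CR libraries exceeded the median of the AL libraries, with a log2 fold change of 0.22 (SE 0.10, adjusted p = 0.297). Ryr1, Ryr2, Itpr1, Atp2a2 and Calb1 had log2 fold changes between -0.20 and 0.15 in this comparison.

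The sign of the Calb2 difference at 15 months varied with the library left out, from -0.45 to 0.42 on the log2 scale over 12 such fits (adjusted p 0.683 to 0.997). Its CR mice had a lowest, median and highest level of 9.01, 19.1 and 183 FPKM, and its AL mice 15.2, 18.7 and 54.9 FPKM. The log2 fold change was 0.11 (SE 0.61, adjusted p = 0.949), and it was -0.45 (SE 0.50, adjusted p = 0.683) without CR replicate 4. The mean of CR mice was 48.8 ± 67.2 FPKM (n = 6) with that library and 22.1 ± 16.6 FPKM (n = 5) without it. In the same library Itpr1 was at 30.2 FPKM, the lowest of all 22 libraries, and Itpr2 at 4.26 FPKM, the highest.

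Whether the change with age differed between diets was tested as an interaction. Of the 10 genes 0 passed in limma, 2 had an unadjusted p under 0.05 (7.66% of all tested genes), and 0% of all tested genes passed. The log2 estimate for Atp2b1, the age change in CR minus that in AL mice, came to 0.69 (SE 0.32, adjusted p = 0.639), that for Itpr2 was 0.35 (SE 0.16, adjusted p = 0.639), and that for Ryr3 was 0.58 (SE 0.33, adjusted p = 0.681). The age change of Atp2b1 and Ryr3 is therefore not shown to differ between AL and CR mice. CR mice at 15 months were also set against AL mice at 5 months. Here 0 of the 10 genes passed limma's test, beside 3.12% of all tested genes, and 2 had an unadjusted p under 0.05, beside 19.3%, namely Ryr1 (log2 fold change -0.63, adjusted p = 0.194) and Atp2b1 (-0.60, adjusted p = 0.140). Without CR replicate 3, the highest library of both, 2 of the 10 genes passed, namely Ryr1 and Atp2b1. Of all tested genes 842 passed in that fit, against 529 with every library.

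**Figure D4:**
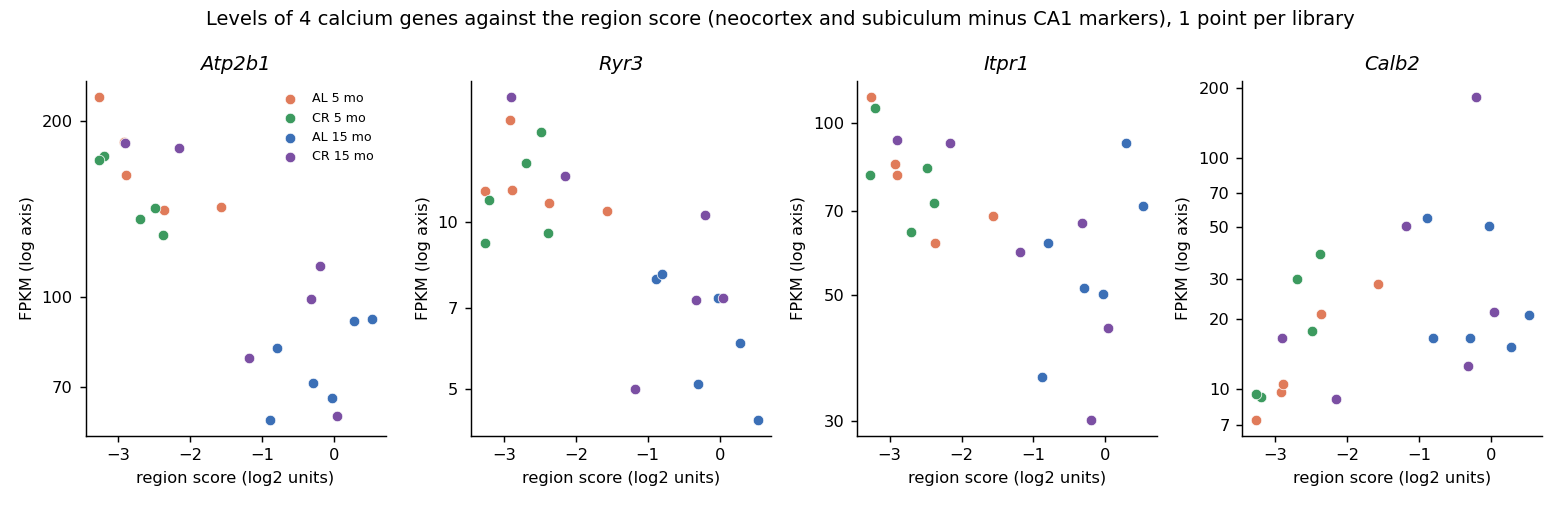
FPKM of Atp2b1, Ryr3, Itpr1 and Calb2 (y axis, log) in each library against its region score (x axis, neocortex and subiculum minus CA1 marker score, log2 units), colored by group. AL libraries at 5 and 15 months occupy separate ranges of the score, and the 2 CR libraries at 15 months with Atp2b1 at 180 and 183 FPKM have scores of -2.16 and -2.90.

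The surrounding calcium machinery was read from 8 lists of other genes, 68 of them measured and 67 tested. With age in AL mice 27 of 67 passed, 9 higher and 18 lower, beside the 20.6% of all tested genes given above. The median log2 fold change of the 67 was -0.18. With the region score as a covariate 0 of the 67 passed. In that fit 0 of all tested genes passed, so the count says nothing particular to these genes.

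Genes of store-operated entry and of the junctions between ER and plasma membrane numbered 11, of which 7 were lower and 1 was higher. Stim2, an ER calcium sensor, went from 32.1 ± 2.42 to 14.4 ± 2.46 FPKM (log2 fold change -1.16, SE 0.23, adjusted p = 0.00185). Orai2, a plasma membrane calcium channel opened by STIM proteins, had a log2 fold change of -1.13 (adjusted p = 0.00646) and Jph1, a junction protein, of -1.12 (adjusted p = 0.0107). Jph2, another junction gene at 0.167 and 0.385 FPKM, was the 1 that rose (log2 fold change 0.83, adjusted p = 0.0136). The genes of both FKBP proteins that bind ryanodine receptors, Fkbp1a and Fkbp1b, were among the 7 that fell.

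Upstream of the IP3 receptors, 1 of 8 genes of IP3 production was higher and 2 were lower. Gnaq, the Gq alpha subunit, fell by 0.49 on the log2 scale (SE 0.10, adjusted p = 0.00204) and the metabotropic receptor Grm5 by 0.43 (SE 0.10, adjusted p = 0.00587). The phospholipase Plcb4 rose by 0.78 (SE 0.25, adjusted p = 0.0288). Among the other SERCA and secretory pathway pumps and their regulators, 2 of 6 were lower and 0 higher, namely Sln, a small SERCA inhibitor at 2.14 and 0.816 FPKM (log2 fold change -1.31, adjusted p = 0.00116), and Atp2c1 (-0.46, adjusted p = 0.00292). Of the other PMCA genes, Atp2b4 was higher and Atp2b3 lower, as given above, and Atp2b2 did not pass.

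Of 8 tested sodium-calcium exchangers, 1 was higher and 2 were lower. Slc24a3 had a log2 fold change of -1.18 (adjusted p = 0.00228), Slc8a2 of -0.45 (adjusted p = 0.0483) and Slc8a3 of 0.87 (adjusted p = 0.00195). Of 5 genes of mitochondrial uptake 0 passed in limma and 2 had an unadjusted p under 0.05, beside 35.2% of all tested genes. Among 11 calcium-binding proteins of the ER lumen only Casq2 passed, from 0.997 to 0.529 FPKM (log2 fold change -0.79, adjusted p = 0.0230). The 15 cytosolic EF-hand proteins split, with 5 higher and 3 lower. The oncomodulin gene Ocm (1.74, adjusted p = 0.0144), Hpcal1 (1.50, adjusted p = 0.00241) and Necab3 (1.47, adjusted p = 0.00148) rose most on the log2 scale. Scgn, which encodes secretagogin (-2.08, adjusted p = 0.0461), hippocalcin or Hpca (-1.62, adjusted p = 0.00111) and the calmodulin gene Calm3 (-0.34, adjusted p = 0.0276) fell.

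**Figure D5:**
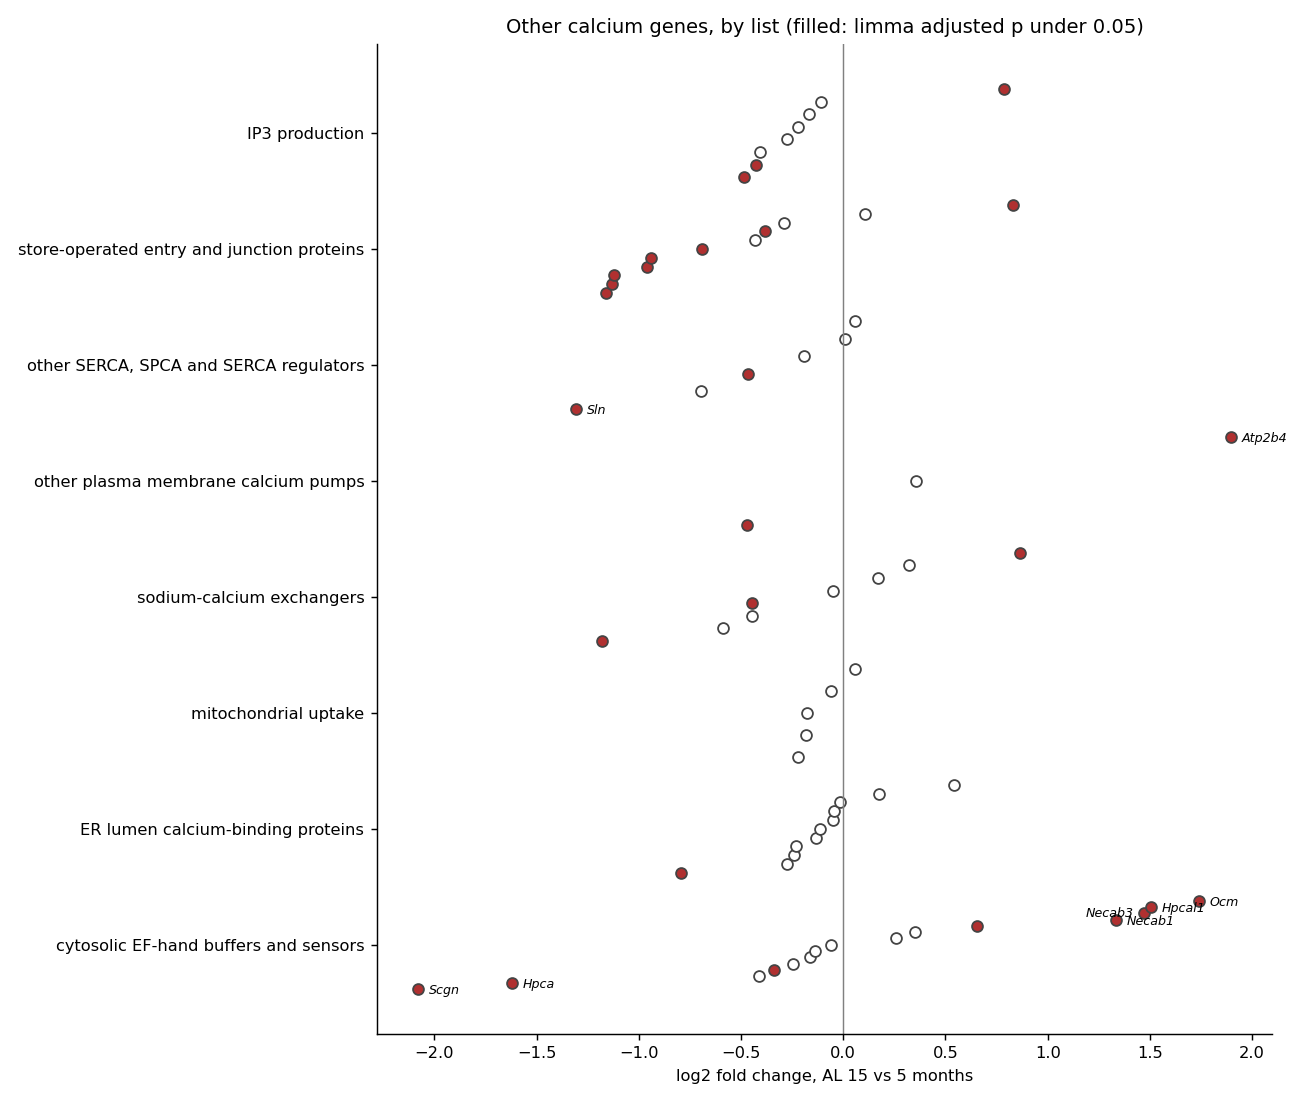
Log2 fold change (x axis) between 15 and 5 months in AL mice of the 67 tested genes of 8 calcium lists (y axis, 1 row per list, with points spread vertically for sight). Filled points passed limma's adjusted p of 0.05, 9 higher and 18 lower, and names mark the largest.

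Between CR and AL mice at 15 months 2 of the 67 genes passed, beside 0.742% of all tested genes, both higher and both in the ER lumen. The study had already reported both as higher in CR mice from these same libraries. The calcium lists were chosen with earlier results known, so the count is not independent of that report. Hspa5, the ER chaperone BiP, was at 159 ± 16.9 FPKM in CR and 100.3 ± 10.9 FPKM in AL mice (n = 6 each), a log2 fold change of 0.66 (SE 0.11, adjusted p = 0.0137). Calr, which encodes the calcium store protein calreticulin, was at 211 ± 29.2 and 155 ± 13.0 FPKM (log2 fold change 0.44, SE 0.10, adjusted p = 0.0418). With only these 2 groups fitted neither passed (adjusted p = 0.0781 for Hspa5 and 0.168 for Calr). Over 12 fits that left out 1 library of these groups, Hspa5 passed in 12 (adjusted p 0.0105 to 0.0457) and Calr in 4 (0.0223 to 0.110). Further fits took the region, dentate or CA1 score as a covariate, the last 2 chosen after seeing the data. In them Hspa5 passed (adjusted p = 0.0386, 0.0265 and 0.0494) and Calr did not (0.205, 0.200 and 0.112). The log2 fold changes were 0.70, 0.70 and 0.66 for Hspa5 and 0.41, 0.42 and 0.37 for Calr. In these fits 7, 12 and 13 of all tested genes passed, against 126 without a covariate. The number of the 67 that passed ran from 1 to 11 with 1 library left out, the 11 without CR replicate 0. The share of all tested genes ran from 0.0883% to 4.31% in those fits.

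Of the 67 genes, 5 passed between ages in CR mice (1 higher and 4 lower), beside 3.36% of all tested genes. With 1 library left out 3 to 8 did, beside 1.95% to 4.56% of all tested genes. The 3 were without CR replicate 1 at 5 months, the 8 without CR replicate 3 at 15 months. When CR mice aged 15 months were set against AL mice aged 5 months 5 passed (2 higher, 3 lower), beside 3.12%. With 1 library left out 2 to 10 did, beside 1.07% to 5.45% of all tested genes. The 2 were without AL replicate 2 or 4 at 5 months, the 10 without CR replicate 3 at 15 months. Between diets at 5 months and in the interaction 0 passed, beside 0% of all tested genes in each. There 4 and 8 of the 67 had an unadjusted p under 0.05 in limma, beside 4.65% and 7.66% of all tested genes.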

How the data were processed

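Libraries were made from CA1 RNA with the TruSeq RNA v2 kit, which keeps no strand. Per the labels and the study's methods, the authors called bases with bcl2fastq, aligned reads to mm10 with TopHat, removed likely duplicates with Picard and computed FPKM with Cufflinks, corrected for fragment bias and multiply mapped reads. Versions are not given in the sources used here. The deposited FPKM values hold no counts, and whole reads could not be recovered from them (at most 0.221% of low genes lay on a common ratio within 0.1%), so the depth behind each value is unknown. Median FPKM of tested genes was 8.01 to 8.65 per library, 18281 to 19175 genes were above 0, and log2 levels of any 2 libraries correlated at 0.889 to 0.945. Groups came from the diet and age labels. Each column of per-sample values was used.

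Genes averaging 0.1 FPKM or more were fitted as log2(FPKM + 0.1) with limma 3.58.1 (R 4.3.3), 4 groups in 1 fit, with an intensity trend. P-values were adjusted by Benjamini-Hochberg over all tested genes, and a gene passed at 0.05. Fold changes are on the log2(FPKM + 0.1) scale and understate changes of low genes such as Itpr3. Exact two-sided permutation tests of single genes went over every split of the libraries compared, in Python 3.11.15 with numpy 2.4.6. The procedure was tested on simulated data. The 10 genes, the calcium lists and the marker lists were chosen with earlier results of these data known. Named list genes are the 3 largest in each direction among those that passed with age in AL mice or with diet at 15 months; Fkbp1a and Fkbp1b were named after their values were seen. Gene positions are from GENCODE M21 (GRCm38).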

Additional observations from a re-analysis of the deposited data

Results flagged for a closer look

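Each of the 10 genes was checked in each of the 4 groups for a library far from the rest of its group (Dixon's criterion at 95%), and 3 of these 40 checks were past the limit, where chance flags about 1 in 20 groups. Ryr3 in AL mice at 5 months was highest in replicate 3, at 15.2 FPKM against 11.4 FPKM for the nearest library, a gap of 0.799 of the group's range. Itpr3 in CR mice at 15 months was highest in replicate 5, at 1.2 FPKM against 0.849 FPKM, a gap of 0.659 of the range. Calb2 in CR mice at 15 months was highest in replicate 4, at 183 FPKM against 50.6 FPKM, a gap of 0.76 of the range. That last library also had the highest mossy cell score (2.05) and CA3 score (2.69) and the lowest CA1 score (3.21) of its group. The part of these markers in its Calb2 level was not tested.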

How the results depend on the processing

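Pseudocounts of 0.01 and 1, another or no filter, a common median, quantile normalization and a fit without trend left each count of passing genes among the 10 within 1.5 times its value. With age in AL mice the 3 calls became 0 with the region score, 1 with the dentate score and 0 with the CA1 score as a covariate, the last 2 chosen after seeing the data. In those 3 fits 0, 1117 and 620 of all tested genes passed, against 3502 without a covariate. With each library left out the 3 calls became 2 to 3. Leave-one-out counts ran from 0 to 1 for CR against AL at 15 months and from 0 to 2 for CR at 15 months against AL at 5 months. In such fits 14.0% to 20.2% of all tested genes passed with age in AL mice. The shares were 0.0883% to 4.31% for CR against AL at 15 months and 1.07% to 5.45% for CR at 15 months against AL at 5 months. Of the other calcium genes, the 27 calls with age in AL mice became 0 (region), 16 (dentate) and 2 (CA1). The 5 with age in CR mice became 3 (only those 2 groups fitted), 1 (region) and 3 (CA1), where 324, 48 and 353 of all tested genes passed, against 570. The 2 calls of CR against AL at 15 months became 0 with only those 2 groups fitted and 1 with each of the 3 scores, and the 5 of CR at 15 months against AL at 5 months became 1, 0 (region) and 2 (CA1). For CR against AL at 15 months, 0 (only 2 groups), 7 (region), 12 (dentate) and 13 (CA1) of all tested genes passed, against 126. For CR at 15 months against AL at 5 months, 218 (only 2 groups), 30 (region) and 294 (CA1) did, against 529. Log2 fold changes with age in AL mice changed sign with the region, dentate and CA1 scores for Ryr1 (0.42, 0.041 and 0.13) and Itpr2 (0.11, 0.037 and 0.049), with the region and dentate scores for Ryr2 (0.062 and 0.15), and with the region and CA1 scores for Itpr1 (0.20 and 0.20) and Calb2 (-0.59 and -0.89). That of Calb1 ran from -0.32 to 0.040 over libraries left out. For Calb2 in CR against AL mice at 15 months it was -0.18 with the dentate score and -0.45 to 0.42 over libraries left out. With age in CR mice the region score gave 0.10 for Atp2b1 and 0.19 for Ryr3. The cause was not tested.

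The labels do not say that replicate numbers pair mice. Same-numbered libraries deviated together with correlations of -0.0912 to 0.163 over 21 pairs, 1 of them over 0.1, which cannot exclude a pairing. With the replicate block, 3 of the 10 genes passed with age in AL mice and 0 in the other comparisons, as without it, and the other calcium genes passing between CR and AL at 15 months were 7 in place of 2. Of all tested genes 323 passed there in place of 126. The block gave 3754 in place of 3502 with age in AL mice and 617 in place of 570 in CR mice. For CR at 15 months against AL at 5 months it gave 684 in place of 529. Itpr3, with a mean under 1 FPKM, has no value under the higher filter, and the interaction none with only 2 groups fitted. Depth is unknown, so no counting error can be given for low genes such as Itpr3 and Jph2.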

Other observations

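The genes whose levels were most like those of the 10 over all 22 libraries were sought among 13839 genes with a mean of at least 1 FPKM, by Pearson's r of log2(FPKM + 0.1), as a description over libraries that share groups and tissue makeup. Atp2b1 was most like Gpr63, an orphan receptor gene (r = 0.959, and 0.902 for deviations from the group means), then Arl15 (0.955 and 0.901) and Actr2 (0.949 and 0.890). Ryr3 was most like Dscaml1 (0.905 and 0.835), Sez6l (0.900 and 0.847) and Slit3 (0.890 and 0.838), and Itpr3 most like Esyt1 (0.907 and 0.796), Map4k2 (0.888 and 0.791) and Fgd2 (0.877 and 0.775). Itpr1 was most like Ephb3 (0.905), Ryr2 like Vps13c (0.898), Ryr1 like Ntrk3 (0.866), Atp2a2 like Mrs2 (0.862), Calb1 like Lypd1 (0.851), Itpr2 like Lama2 (0.821) and Calb2 like Ano2 (0.789).

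Among the 10 genes themselves, Itpr1 and Calb2 moved in opposite directions over the 22 libraries (r = -0.82, and -0.80 within groups), while Itpr1 and Atp2b1 moved together (0.72 and 0.70), as did Ryr3 and Atp2b1 (0.77 and 0.52). Itpr3 and Calb1 were opposed (-0.58 and -0.70), as were Atp2a2 and Calb1 (-0.41 and -0.61).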
